A study of Homo sapiens with 8 samples.

Results

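The DDX and DHX RNA helicases are a family of enzymes that use ATP to open RNA duplexes or to remodel RNA-protein complexes. DDX proteins are named for the Asp-Glu-Ala-Asp motif of their ATPase core and separate short duplexes locally, whereas DHX proteins, with the related DEAH motif, tend to move along an RNA strand. Between them they act at nearly every step in the life of an RNA, from ribosome assembly in the nucleolus and splicing to nuclear export, translation and decay. Members were all rows whose RefSeq identifier mapped to a symbol beginning with DDX or DHX and a digit, with RIGI (DDX58) and DDX3Y left out. This gave 83 of 24812 listed transcripts, which belonged to 54 of 14524 named genes. Of these genes, 50 were protein-coding (34 DDX and 16 DHX), and the others were DDX11-AS1, DDX19A-DT, DDX12P and DDX11L2.

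The cells were SQ20B, an established line from a human head and neck squamous cell carcinoma. Poly(A)-selected RNA was sequenced from 4 normoxic samples and from 4 samples held in 0.5% O2 for 16 h, all grown in the same high-glucose medium with serum. The deposited table gives 1 FPKM value per condition (read fragments scaled to transcript length and library depth), so that no spread between replicates could be computed, and every difference is a description without a test. Changes are given as log2((hypoxia FPKM + 0.1)/(normoxia FPKM + 0.1)), which understates the changes of genes with low FPKM. Gene values are sums over listed transcripts, and counts are over expressed genes, meaning a mean of 0.5 FPKM or more. In these bulk samples, fewer cells of a kind and less RNA per cell cannot be told apart.

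FPKM summed to 536005 in normoxia and 458431 in hypoxia, and the median log2 change of all 12103 expressed genes was -0.07. Scaling both columns to equal sums moved that median by 0.22, to 0.15, so signs of small changes depend on the scaling. All 14 listed genes of a hypoxia response list were at least 1.5-fold higher in hypoxia, with CA9, a carbonic anhydrase, at 0.694 and 21.6 FPKM. All 7 listed squamous markers were expressed, 4 of them higher in hypoxia and 3 lower, from KRT6A (5.10 and 3.26 FPKM, -0.63) to CDH1 (61.1 and 82.6 FPKM, 0.43), with KRT5 the most abundant (398 and 442 FPKM). By contrast, the leukocyte markers CD68 and ITGAM had at most 2.86 FPKM and the fibroblast and endothelial markers CDH5 and COL3A1 at most 4.78 FPKM.

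Most of the helicase genes had less RNA in hypoxia. Of 52 expressed members, 41 (78.8%) had a log2 change below 0, against 56.4% of all genes. With equal FPKM sums 34 members did, against 36.2% of all genes. The median log2 change of the members was -0.37. In hypoxia 14 members (26.9%) were at least 1.5-fold lower, against 11.2% of all genes, and 1 was at least 1.5-fold higher, against 9.94%. With equal sums, 8 members passed the limit in the lower direction, against 4.94% of all genes, and 2 in the higher direction, against 18.3%. The members' FPKM summed to a value 20.8% lower in hypoxia than in normoxia, against 14.5% lower over all listed transcripts. Their share of the total was 0.449% in normoxia and 0.415% in hypoxia. The median was -0.37 for protein-coding DDX genes and -0.38 for DHX genes. At least 1.5-fold lower were 12 of 34 DDX and 2 of 15 expressed DHX genes, and the difference between the subfamilies was not tested.

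Helicases were more abundant than most genes, with a median mean FPKM of 20.8 over the protein-coding members against 9.23 over all genes, and abundant genes tended to be lower in hypoxia. Spearman's correlation of the change with the log level was -0.28 across all expressed genes and 0.24 across the members, so the members did not share this trend among themselves (genes are not independent replicates). Among the 5809 genes whose mean was 10 FPKM or more, 68.3% had a change below 0, 13.1% were at least 1.5-fold lower and 5.1% at least 1.5-fold higher. Of the 37 protein-coding members at that level, 30 (81.1%) had a change below 0, 9 (24.3%) were at least 1.5-fold lower and 1 was at least 1.5-fold higher. The part of abundance in the members' changes was not tested.

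**Figure D1:**
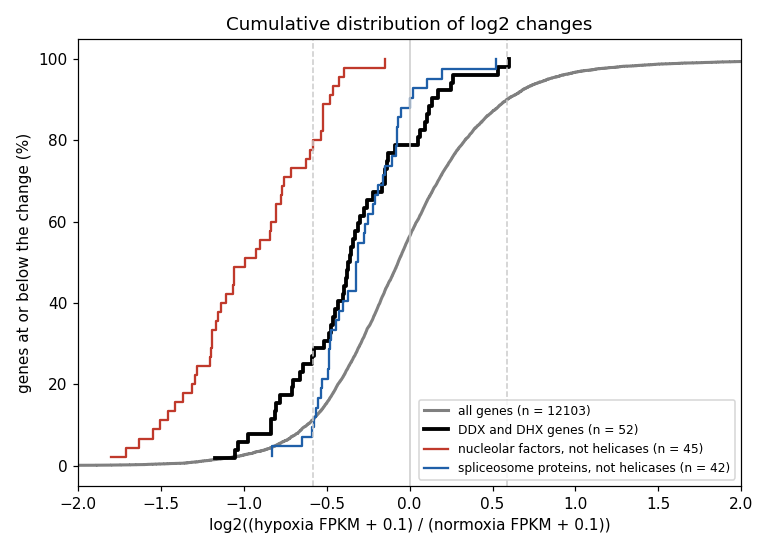
Cumulative share of genes (percent, vertical axis) at or below each log2 change of hypoxia against normoxia FPKM as deposited (horizontal axis, 0.1 FPKM added), for all genes, DDX and DHX genes, nucleolar factors and spliceosome proteins; dashed lines mark 1.5-fold in each direction. The helicase curve lies to the left of all genes (median -0.37 against -0.07) and to the right of the nucleolar factors (median -0.99).

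The largest group by role was that of ribosome biogenesis, in which DEAD-box proteins open and rearrange pre-rRNA and small nucleolar RNA duplexes. All 16 of these helicases had lower FPKM in hypoxia, against 56.4% of all genes, with a median log2 change of -0.49. In 7 (43.8%, against 11.2% of all genes) the value was at least 1.5-fold lower. These were DDX21, DDX56, DDX10, DDX51, DDX31, DDX49 and DHX33. With equal FPKM sums 14 stayed below 0, against 36.2% of all genes, the exceptions being DDX24 and DDX50. DDX21, which links RNA polymerase I transcription to pre-rRNA processing, stood at 206 FPKM in normoxia, the highest of any member, and at 91.1 FPKM in hypoxia, where it ranked in place 7. Its log2 change of -1.17 (2.26-fold lower) was the lowest of the family as deposited and with equal sums, and after quantile normalization DDX28, DDX51 and DDX56 were lower. A lower change than that of DDX21 was found in 1.48% of all genes.

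DDX56, a nucleolar helicase of the large subunit pathway, had 20.4 FPKM in normoxia and 9.77 in hypoxia (log2 change -1.05). DDX10, which acts in assembly of the small subunit, had 33.4 and 16.3 FPKM, a log2 change of -1.03. With DDX21 these were the members that were at least 2-fold lower. DDX51, of the large subunit pathway, had little RNA in either condition, 1.27 FPKM in normoxia and 0.668 in hypoxia (log2 change -0.84). DDX31 had 11.5 and 6.49 FPKM (-0.81) and DDX49 had 6.22 and 3.51 FPKM (-0.81). DHX33, which takes part in rRNA transcription, had 6.80 and 4.32 FPKM (-0.64).

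The other abundant nucleolar helicases differed less. DDX18 had 137 FPKM in normoxia and 104 in hypoxia (log2 change -0.40), DDX47 had 116 and 88.6 (-0.38), DDX27 had 52.3 and 39.8 (-0.39) and DDX52 had 45.0 and 35.1 (-0.36). DDX55, DHX37 and DDX54 had log2 changes of -0.51, -0.47 and -0.30. DDX24 had 95.8 and 87.1 FPKM (-0.14) and turned to 0.09 with equal sums. The spread within the group was thus wide, from a little over 2-fold lower to nearly level, and abundance did not order it.

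DDX21 and DDX50 are close paralogs whose loci are neighbours on chromosome 10 of hg19, with 9275 bases between DDX50 (70661034 to 70706603) and DDX21 (70715879 to 70744825). DDX50 had 67.8 FPKM in normoxia and 61.9 in hypoxia, with a log2 change of -0.13 that became 0.09 with equal sums. DDX21 had 3.03 times the FPKM of DDX50 in normoxia and 1.47 times in hypoxia. The log2 changes of the pair differed by 1.04, and this difference holds under any scaling that multiplies a whole column. Reads of paralogs can be split unevenly in the authors' estimation, and read counts were not analysed here.

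The nucleolar factors that are no DDX or DHX helicases were lower still. All 45 that were expressed had a log2 change below 0, against 56.4% of all genes, with a median of -0.99. At least 1.5-fold lower were 35 (77.8%), against 11.2% of all genes. With equal FPKM sums 44 stayed below 0, against 36.2% of all genes. The exception was POLR1A, the large subunit of RNA polymerase I (4.23 and 3.81 FPKM). RRP9, a protein of the U3 small nucleolar RNP, had 5.57 FPKM in normoxia and 1.53 in hypoxia (log2 change -1.80), and RRS1, a large subunit assembly factor, had 15.5 and 4.68 FPKM (-1.71). UTP14A, the activator of the helicase DHX37, had 31.2 and 14.9 FPKM (-1.06), against 2.49 and 1.77 FPKM for DHX37 itself. The ribosome biogenesis helicases thus had the same direction as deposited with a median nearer to 0, a difference that was not tested.

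**Figure D2:**
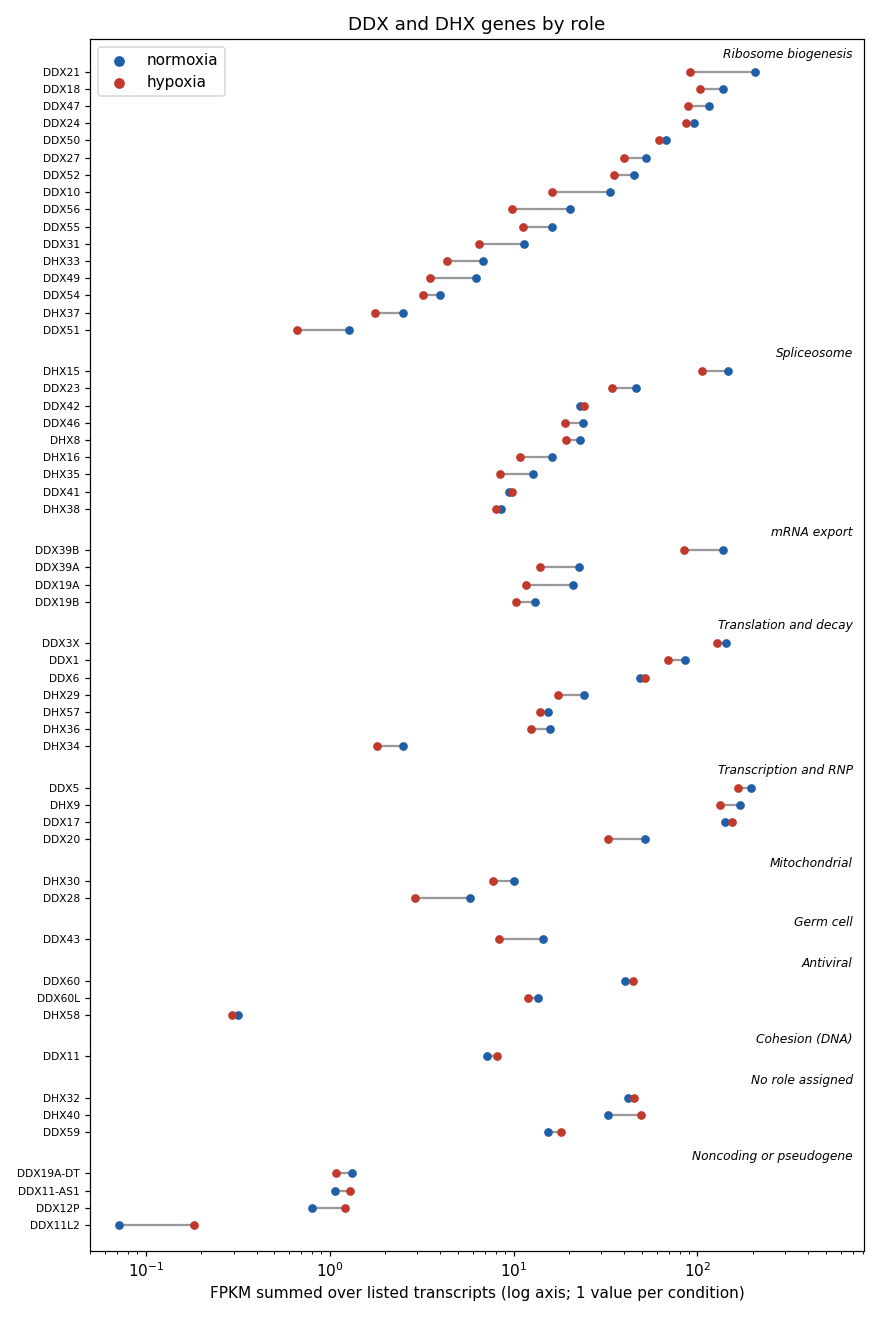
FPKM in normoxia (blue) and hypoxia (red) on a log axis for each of the 54 member genes, grouped by role, with 1 authors' value per condition and no error bar. Among the ribosome biogenesis genes every hypoxia point lies to the left as deposited, whereas DHX40 (32.7 and 49.4 FPKM) has the widest step to the right among genes above 0.5 FPKM.

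The helicases of mRNA export had the lowest median of the groups with at least 3 expressed members, -0.71. All 4 of them were lower in hypoxia under every scaling tried. Among all genes, 56.4% were below 0 as deposited and 36.2% with equal sums. DDX39B (UAP56), which loads the export adaptor ALYREF on spliced mRNA and also acts in early spliceosome assembly, had 138 FPKM in normoxia and 84.8 in hypoxia (log2 change -0.70). Its paralog DDX39A had 22.7 and 13.8 FPKM, a log2 change of -0.71, so that the ratio of DDX39B to DDX39A was 6.07 in normoxia and 6.13 in hypoxia. DDX19A, which releases mRNA at the cytoplasmic face of the nuclear pore, had 21.0 and 11.8 FPKM (-0.83). Its tandem paralog DDX19B, 173 bases away on chromosome 16, had 13.1 and 10.3 FPKM (-0.35), and the ratio of DDX19A to DDX19B was 1.60 in normoxia and 1.15 in hypoxia.

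Some of these values carry limits. The table places DDX39B, with DHX16, on an alternate haplotype sequence of chromosome 6, where reads match several copies. In GENCODE, 64.2% of the exonic bases of DDX19A and all of those of DDX39B also belong to exons of another gene. The same holds for 99.7% of those of DDX47, the ribosome biogenesis helicase above, which are shared with APOLD1 on the same strand. The noncoding neighbour DDX19A-DT had 1.32 and 1.08 FPKM. A recount left out the 17 members that are noncoding, have a near-identical copy, lie on that haplotype or share at least 10% of exonic bases. The median log2 change of the remaining 36 genes was -0.38, 29 of them were below 0 and 11 were at least 1.5-fold lower. Of all genes, 56.4% were below 0 and 11.2% were at least 1.5-fold lower.

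The THO/TREX proteins, partners of DDX39B, had a median log2 change of -0.21 over 11 genes, which turned to 0.02 with equal sums. ALYREF had 50.3 FPKM in normoxia and 31.9 in hypoxia (-0.66) and THOC5 had 34.2 and 22.2 (-0.62). THOC2 (0.07) and ZC3H11A (0.20) were slightly higher in hypoxia. In all, 3 of the 11 genes (27.3%) were at least 1.5-fold lower as deposited, against 11.2% of all genes. With equal FPKM sums 0 were, against 4.94% of all genes.

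The spliceosome uses a series of helicases for assembly, activation, the catalytic steps and disassembly. Of 9 such members, 7 (77.8%, against 56.4% of all genes) had lower FPKM in hypoxia, with a median log2 change of -0.33. With equal sums 6 did, against 36.2% of all genes. DHX35, a member of the catalytic spliceosome, was the only one past 1.5-fold, with 12.7 FPKM in normoxia and 8.41 in hypoxia (-0.59, and -0.37 with equal sums, short of the limit). This 1 of 9 (11.1%) was no more than the 11.2% of all genes. DHX16, which acts in spliceosome activation, was just short of it with 16.1 and 10.8 FPKM (-0.58). DHX15, which takes apart spent spliceosomes and also serves ribosome assembly, had 147 and 105 FPKM (-0.48). DDX23, of the U5 snRNP, had 46.5 and 34.4 FPKM (-0.43). DDX46, of the U2 snRNP, had 23.9 and 19.0 FPKM (-0.33).

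The other spliceosome members were nearer to level. DHX8, which releases the spliced mRNA, had a log2 change of -0.26 (23.0 and 19.2 FPKM). DHX38, needed for the step before exon ligation, had 8.55 and 8.03 FPKM (-0.09, and 0.13 with equal sums). DDX41 (9.42 and 9.78 FPKM) and DDX42 (23.0 and 24.0 FPKM) had log2 changes of 0.05 and 0.06. The spliceosome proteins that are not DDX or DHX helicases had a similar median of -0.32 over 42 genes, of which 37 were below 0 (88.1%, against 56.4% of all genes) and 4 were at least 1.5-fold lower (9.52%, against 11.2%). The lowest were SF3A3 of the U2 snRNP (114 and 64.2 FPKM, -0.83) and PRPF4 of the U4/U6 snRNP (53.0 and 29.8 FPKM, -0.83). PRPF8, the scaffold of the catalytic core, was the highest, with 20.1 and 28.9 FPKM (0.52), before SNRNP70 of the U1 snRNP (36.2 and 41.5 FPKM, 0.20). With equal sums 26 of the 42 were below 0, against 36.2% of all genes.

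**Figure D3:**
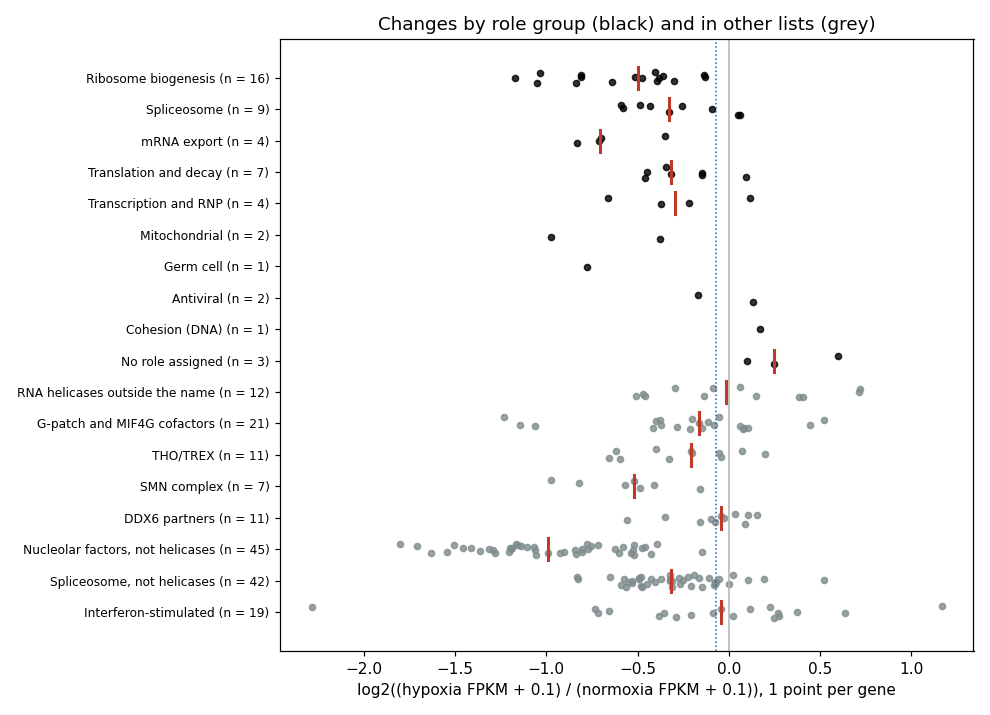
log2 change of hypoxia against normoxia FPKM as deposited (horizontal axis, 0.1 FPKM added) for each expressed gene, with 1 point per gene, member role groups in black and other lists in grey; red ticks are medians of groups with at least 3 genes and the dotted line is the median of all genes (-0.07). The mRNA export (-0.71) and ribosome biogenesis (-0.49) medians lie farthest left among the helicases, and the nucleolar factors (-0.99) farthest left of all.

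The nuclear helicases of transcription and RNP assembly included the most abundant members. DDX5 (p68) and its paralog DDX17 (p72) are cofactors of transcription, splicing and microRNA processing. DDX5 had 194 FPKM in normoxia and 167 in hypoxia (log2 change -0.22, and 0.01 with equal sums), and DDX17 had 142 and 153 FPKM (0.12). Their summed FPKM was 336 in normoxia and 320 in hypoxia, and DDX5 and DDX17 ranked in places 2 and 6 of all members in normoxia and in places 1 and 2 in hypoxia. DHX9 (RNA helicase A) had 171 and 132 FPKM (-0.37) and kept place 3. The 5 members of highest mean FPKM (DDX5, DHX9, DDX21, DDX17 and DDX3X) held 35.6% of the summed FPKM of the protein-coding members in normoxia and 35.3% in hypoxia.

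DDX20 (Gemin3), the helicase of the SMN complex that assembles spliceosomal snRNPs, had 52.1 FPKM in normoxia and 32.8 in hypoxia (log2 change -0.66). All 7 other expressed SMN complex genes were also below 0, against 56.4% of all genes, with a median of -0.52. With equal sums 6 stayed so, against 36.2% of all genes. SMN2, a near-identical copy of SMN1, was below the FPKM limit at 0.101 and 0.163 FPKM (0.39). SMN1 is not among these listed genes, so the reads given to SMN2 are uncertain and the RNA level of SMN is not known here. GEMIN6 had 84.8 and 43.1 FPKM (-0.97) and GEMIN5 had 21.6 and 12.2 FPKM (-0.82). GEMIN8, at 3.12 and 2.79 FPKM, was nearest to level (-0.16). DDX20 thus lay within the range of its complex.

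The cytoplasmic helicases of translation, storage and decay differed less between conditions. Of 7 genes, 6 had a log2 change below 0 (85.7%, against 56.4% of all genes), with a median of -0.31. None was past 1.5-fold, against 11.2% of all genes lower and 9.94% higher. With equal sums 4 were below 0, against 36.2% of all genes. DHX29, which helps the small ribosomal subunit scan structured leaders, had 24.1 FPKM in normoxia and 17.5 in hypoxia (-0.46). DDX1, of the tRNA ligase complex, had 86.1 and 69.2 FPKM (-0.31), and DHX36, which unwinds G-quadruplexes, had 15.8 and 12.5 FPKM (-0.34). DHX34, a factor of nonsense-mediated decay, had 2.51 and 1.81 FPKM (-0.45).

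DDX3X, which supports translation of mRNAs with structured leaders, had 142 FPKM in normoxia and 128 in hypoxia (-0.15, and 0.08 with equal sums). DHX57 had 15.5 and 14.0 FPKM (-0.15, and 0.08 with equal sums). DDX6, the helicase of P-bodies that represses translation and promotes decapping, had 48.6 and 51.9 FPKM (0.09). Its partners were as close to level, with a median log2 change of -0.04 over 11 genes (0.18 with equal sums). None was past 1.5-fold as deposited, against 11.2% of all genes lower and 9.94% higher. EDC4 (3.46 and 2.31 FPKM, -0.56) and ATXN2L (2.16 and 1.68 FPKM, -0.35) were the lowest of these partners, and LSM14B (15.0 and 16.7 FPKM, 0.16) and CNOT1 (46.8 and 50.3 FPKM, 0.11) the highest.

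Both mitochondrial helicases were lower in hypoxia under every scaling tried. Among all genes, 56.4% were below 0 as deposited and 36.2% with equal sums. DDX28, which acts in assembly of the mitochondrial large ribosomal subunit, had 5.79 FPKM in normoxia and 2.90 in hypoxia (log2 change -0.98). DHX30, of mitochondrial RNA granules, had 10.1 and 7.75 FPKM (-0.38). DDX28 is a gene of 1 exon on chromosome 16, and the table lists it under a wider locus of hg19 (68055177 to 68113226). DDX43, a helicase known mainly from testis and tumours, had 14.4 and 8.38 FPKM (-0.78), and 20.0% of its exonic bases are shared with genes on the opposite strand in GENCODE.

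The antiviral members were near to level. DDX60, an interferon-induced helicase, had 40.6 FPKM in normoxia and 44.5 in hypoxia (0.13), and its tandem paralog DDX60L had 13.5 and 12.04 FPKM (-0.17, and 0.06 with equal sums). DHX58 (LGP2), a regulator of RIG-I-like receptors, was below the FPKM limit at 0.318 and 0.295. Of 19 interferon-stimulated genes, 10 were below 0 (52.6%, against 56.4% of all genes). The median was -0.04, which turned to 0.18 with equal sums. IFI27 (34.4 and 6.97 FPKM, -2.29) and OASL (63.4 and 38.1 FPKM, -0.73) were the lowest, and IRF7 (0.609 and 1.496 FPKM, 1.17) and OAS3 (18.9 and 29.5 FPKM, 0.64) the highest.

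DHX40 was the one member at least 1.5-fold higher in hypoxia with 0.1 FPKM added. With 1 FPKM added no member was, the log2 change of DHX40 then being 0.584, just short of the limit of 0.585. DHX40 lies on chromosome 17 of hg19 (57642886 to 57685713) and had 32.7 FPKM in normoxia and 49.4 in hypoxia. Its log2 change was 0.60 as deposited and 0.82 with equal sums. Its rank among the members went from place 21 to place 14. The next higher members were DDX12P (0.805 and 1.21 FPKM, 0.53), DDX11-AS1 (1.06 and 1.30, 0.26), DDX59 (15.3 and 18.2, 0.25) and DDX11 (7.21 and 8.13, 0.17). DHX32 had 41.8 and 44.9 FPKM (0.10). DDX11, a DNA helicase of sister chromatid cohesion, DDX12P and DDX11L2 (0.0712 and 0.183 FPKM) have near-identical sequence, so the reads given to each are uncertain.

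Other RNA helicases outside the DDX and DHX names were not lower as a group. Of 12 listed genes, among them the DNA translocase FANCM, 6 were below 0 (50%, against 56.4% of all genes). The median log2 change was -0.01, which turned to 0.21 with equal sums. MTREX, the helicase of the nuclear exosome, had 43.0 FPKM in normoxia and 30.3 in hypoxia (-0.51), and SUPV3L1, of mitochondrial RNA decay, had 33.1 and 23.9 (-0.47). HELZ had 4.20 and 6.99 FPKM (0.72) and MOV10 had 8.39 and 13.8 (0.71). EIF4A3, the DEAD-box protein of the exon junction complex, had 108 and 78.9 FPKM (-0.46), whereas EIF4A2, of translation initiation, had 306 and 406 FPKM (0.41). Their direction was thus mixed, and their difference from the DDX and DHX genes was not tested.

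Many helicases are switched on by G-patch or MIF4G proteins. Over 21 listed cofactors, among them UTP14A, which is of neither kind, the median log2 change was -0.16 as deposited and 0.06 with equal sums. As deposited 15 were below 0 (71.4%, against 56.4% of all genes), and with equal sums 8, against 36.2% of all genes. The lowest were GPATCH4 (16.6 FPKM in normoxia and 7.01 in hypoxia, -1.23), a nucleolar partner of DHX15, and PINX1 (17.1 and 7.67 FPKM, -1.15), also nucleolar. SON (14.0 and 20.2 FPKM, 0.52) and GPATCH8 (3.004 and 4.13, 0.45) were the highest. GPATCH4, PINX1 and UTP14A were the 3 cofactors at least 1.5-fold lower (14.3%, against 11.2% of all genes). UTP14A is also counted among the nucleolar factors above.

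Single transcripts showed the same direction as the genes. Of 71 expressed member transcripts, 55 were below 0, against 57.4% of all transcripts, 21 (29.6%) were at least 1.5-fold lower, against 14.3% of all transcripts, and 1 was at least 1.5-fold higher, against 10.5%. Of the members, 35 had 1 listed transcript and 19 had more, up to 5. In 16 genes at least 2 transcripts were above the limit, and in 2 of these, DDX54 and DDX39A, their log2 changes differed by at least 1.

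DDX54, a nucleolar helicase, had a different leading transcript in each condition, with sums of 4.00 and 3.23 FPKM. NM_024072 had 2.68 FPKM in normoxia and 1.35 in hypoxia (log2 change -0.94), and its share of the gene went from 66.9% to 41.8%. NM_001111322 had 1.33 and 1.88 FPKM (0.47), and its share went from 33.1% to 58.2%. For DDX39A the noncoding NR_046366 had 6.72 and 2.11 FPKM (-1.63) and went from 29.6% to 15.2% of the gene, while the coding NM_005804 had 16.0 and 11.7 FPKM (-0.45). With coding transcripts alone, DDX39A was therefore short of the 1.5-fold limit, whereas DHX30 passed it (-0.59), so the count of lower genes stayed at 14. How Cufflinks shares reads between overlapping transcripts bears on such values, and no error of theirs was available here.

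The transcripts of other genes differed less from each other. DDX31 NM_022779 had 10.1 and 5.17 FPKM (-0.95) while its minor NM_138620 was level at 1.40 and 1.32. The coding transcripts of DDX39B, NM_004640 (100 and 64.5 FPKM) and NM_080598 (36.8 and 19.9 FPKM), had log2 changes of -0.64 and -0.88. In DHX30 the noncoding NR_075079 held 52.0% of the FPKM in normoxia and 58.9% in hypoxia. DDX11 NM_152438, below the limit in the mean, was listed at 0.635 and 0.0461 FPKM while the other DDX11 transcripts were all higher in hypoxia.

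**Figure D4:**
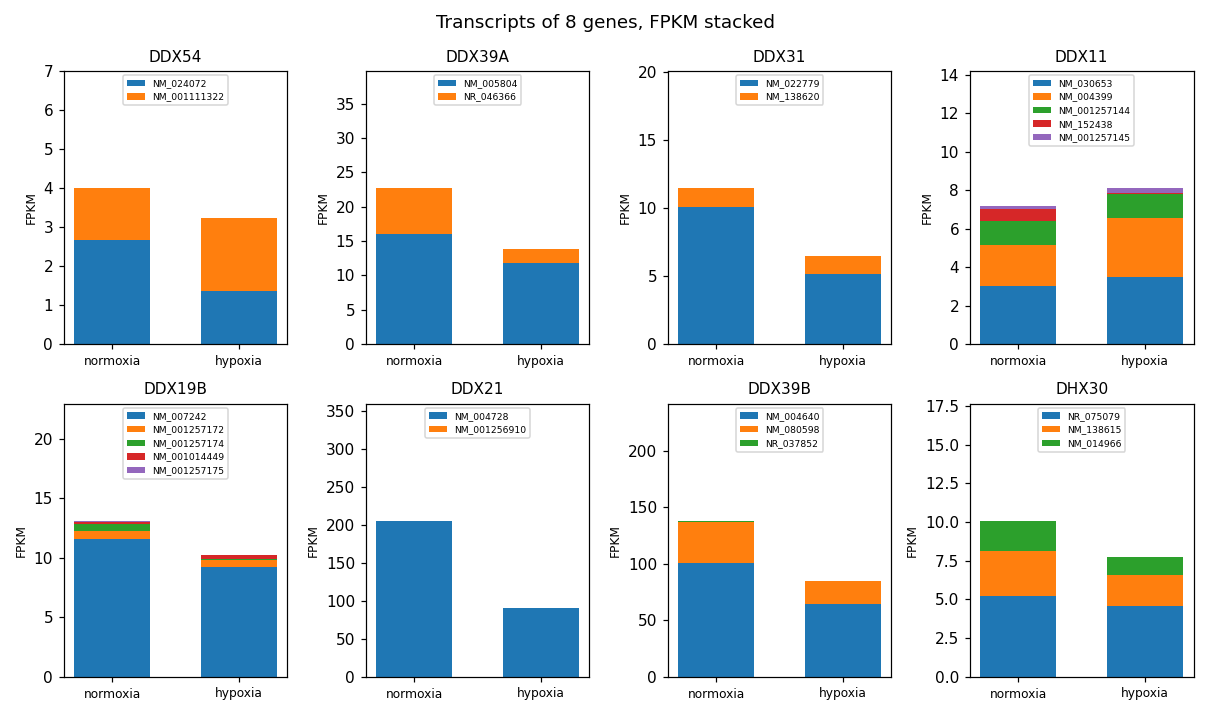
FPKM of each listed transcript, stacked, in normoxia and hypoxia for 8 helicase genes with several transcripts; each panel has its own axis from 0, and there is 1 authors' value per condition without an error bar. In DDX54 NM_001111322 is 33.1% of the gene in normoxia and 58.2% in hypoxia, and in DDX39A the noncoding NR_046366 is 29.6% and 15.2%.

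Promoter sequence was examined because most members were lower together. RefSeq promoters of GRCh38.p14, from 250 bases before to 50 bases after the gene start, matched 45 of the 50 protein-coding members, all but DDX18, DDX49, DDX52, DHX33 and DHX58. The ETS letters CCGGAAG, searched on both strands, were in 20 of the 45 (44.4%), against 20.3% of the promoters of all genes above 0.5 FPKM and 10.7% of all 27305 promoters. In 17 of the 20 a match lay between 100 bases before and 50 bases after the gene start. Windows around the match are shown for 5 members at least 1.5-fold lower in hypoxia, on the gene's strand, with the matched letters or their reverse complement in capitals.
DDX21 (chr10:68956099-68956127, plus strand): tcctgcttcccCCGGAAGtgccttgctac
DDX56 (chr7:44573988-44574016, minus strand): ggccgccagcaCTTCCGGgaagtgacttc
DDX31 (chr9:132670024-132670052, minus strand): ccgttccggacCCGGAAGgggcggtggcg
DDX39B (chr6:31542000-31542028, minus strand): gaagcctgcaaCCGGAAGtgaaggcagat
DDX19A (chr16:70346873-70346901, plus strand): gctcaccgccgCTTCCGGtccgcgtgagg

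The match did not separate members by their change. Those with the ETS letters had a median log2 change of -0.38 and those without of -0.35, and 5 of the 12 members with a promoter that were at least 1.5-fold lower held it. Over all genes above 0.5 FPKM the medians were -0.19 with the letters and -0.05 without. The palindromic E-box CACGTG was in 8 of 45 member promoters (17.8%), against 10.1% of those of genes above 0.5 FPKM, with a median of -0.37 on either side. It is shown for DHX40, the member with the highest log2 change, and for DDX31, one of the lower ones, with the letters in capitals.
DHX40 (chr17:59565448-59565477, plus strand): caaggcgaagcgCACGTGgcagttggcggg
DDX31 (chr9:132669988-132670017, minus strand): cctcgcgcgtccCACGTGgggtcccgggcc
A match is only a run of letters in this window, and binding was not measured here.

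Under all scalings, 45 of the 52 expressed members kept their sign. The others were DDX5, DDX60L, DDX3X, DHX57, DDX24, DDX50 and DHX38, each below 0 as deposited and above 0 with equal FPKM sums. The order of the members by FPKM was largely kept between conditions, with a Spearman correlation of 0.98 over the 54 genes, which share the same 2 columns.

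**Figure D5:**
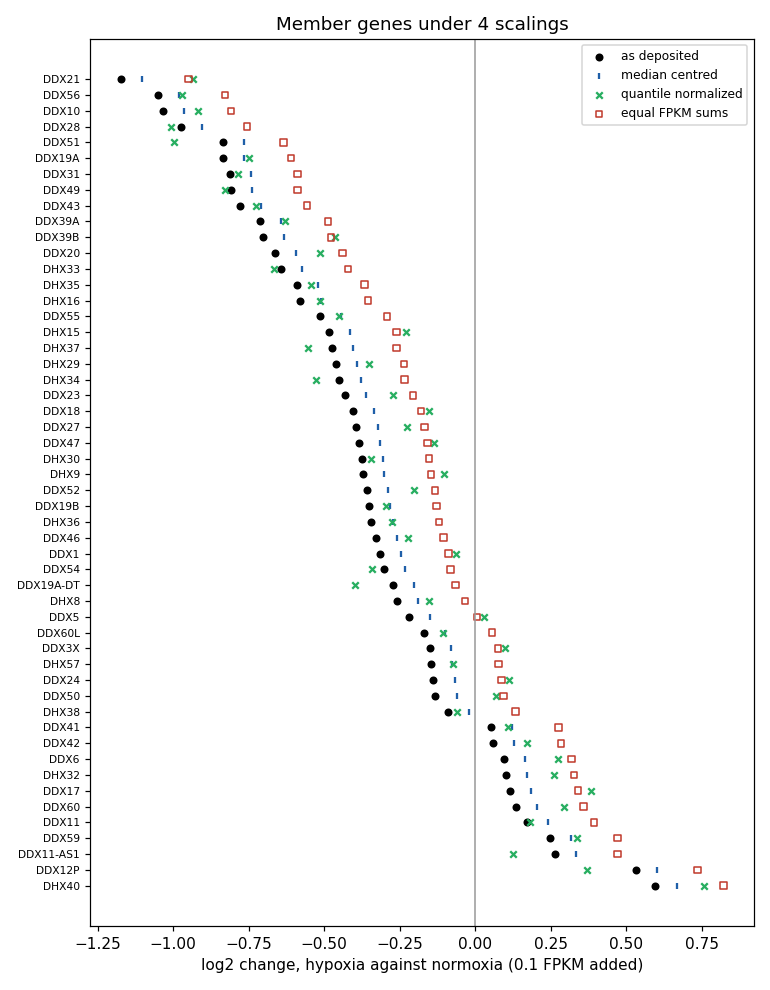
log2 change of hypoxia against normoxia FPKM (horizontal axis, 0.1 FPKM added) of the 52 expressed members under 4 scalings: as deposited, centred on the median gene, quantile normalized, and with equal FPKM sums. DDX21 is lowest as deposited (-1.17), DHX40 is highest under each scaling, and 7 genes near 0 cross the line with equal sums.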

How the data were processed

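The authors prepared stranded poly(A)-selected libraries from 4 normoxic and 4 hypoxic SQ20B samples, aligned reads to RefSeq hg19 with STAR 2.3.0.1 and used Cufflinks 2.1.1 with standard parameters, per the labels and the methods. The deposited FPKM values are the authors', 1 per condition. Whether strand was used in their estimation is not given in the sources used here. The table also holds the authors' own comparison (log2 fold change, test statistic, p-value and q-value), which was not used. Depths and counts of single samples were not analysed here, so no interval, floor or test is given, and the planned limma fit was not run.

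RefSeq accessions were paired with symbols through the GRCh38.p14 annotation (names only), which matched 24289 of 24812 rows (97.9%). FPKM was summed per gene, 0.1 was added before the log2 ratio, and the limits were a mean of 0.5 FPKM and a 1.5-fold difference. Named genes were the 10 highest and 10 lowest members, the 5 most abundant, paralog pairs, genes with discordant transcripts, members below the limit and the extremes of the other lists; further members were named for completeness after their values were seen. Members and lists were chosen with earlier results of these data known. Listed loci were printed with 1 added to the start, since 1082 loci then equalled a GENCODE v44lift37 (GRCh37) transcript, against 81 without. Exon overlaps came from the same annotation. The fold limit and the equal-sums and quantile scalings were checked on copies of the normoxia column with set factors applied and no noise. The pairing with symbols, the exon overlaps and the promoter search were not checked in this way. Python 3.11.15, numpy 2.4.6, pandas 2.3.3 and matplotlib 3.10.9 were used.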

Additional observations from a re-analysis of the deposited data

How the results depend on the processing

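The counts, the medians of role groups and comparison lists and the log2 change of each member were recomputed with another pseudocount (1 or 0.01), FPKM limit, scaling or way of joining transcripts, and a median was taken to have moved when it differed by 0.1 or more. No paired analysis was possible because the columns hold 1 value per condition, and leaving out replicates was not run for the same reason. The lists outside the family were added to this after the data were seen. Scaling to equal FPKM sums moved the median log2 change from -0.37 to -0.14 for all members, from -0.49 to -0.28 for ribosome biogenesis, from -0.33 to -0.10 for spliceosome, from -0.71 to -0.48 for mRNA export, from -0.31 to -0.089 for translation and decay, and from -0.30 to -0.071 for transcription and RNP helicases. That scaling lowered the count of genes at least 1.5-fold lower from 14 to 8, and the share of all genes from 11.2% to 4.94%. It raised the counts at least 1.5-fold higher from 1 to 2 genes and from 1 to 4 transcripts. Of all genes, 9.94% were at least 1.5-fold higher as deposited and 18.3% with equal sums. Quantile normalization gave medians of -0.23 for all members, -0.22 for spliceosome, -0.55 for mRNA export, -0.074 for translation and decay and -0.037 for transcription and RNP helicases. The mRNA export median was -0.57 with coding transcripts and -0.54 with the most abundant transcript of each gene. A limit of 5 to 4 in place of 1.5-fold gave 30 genes lower and 2 higher, and 2-fold gave 3 and 0. The shares of all genes at these other limits were not computed, so these counts have no background beside them. Higher genes numbered 2 after median centring or with no FPKM limit and 0 with a pseudocount of 1, and higher transcripts 3, 3 and 0. For these settings too the shares of all genes and transcripts were not computed. With a mean FPKM of at least 10, a limit added after the data were seen, 9 genes were lower, against 13.1% of all genes at that level. No median of the 5 role groups or of all members turned sign. With equal sums the medians of THO/TREX (0.02), G-patch and MIF4G cofactors (0.06), DDX6 partners (0.18), interferon-stimulated genes (0.18) and helicases outside the name (0.21) turned above 0. The last 2 also did so after median centring (0.02 and 0.06) and quantile normalization (0.13 and 0.06), DDX6 partners after median centring (0.03), and interferon-stimulated genes with the most abundant transcript (0.03). The share of members below 0 was 65.4% with equal sums and 71.2% after quantile normalization, against 78.8% as deposited. Among all genes it was 36.2% with equal sums and 56.4% as deposited, and 6227 of 12103 were below 0 after quantile normalization. Without read counts, the precision of values below a few FPKM is unknown.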

Other observations

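The other promoter letters searched were found in member promoters at shares nearer to those of all expressed genes, and no difference was tested. The core letters of the hypoxia response element, ACGTG, which every E-box CACGTG also contains, were in 14 of 45 member promoters (31.1%), against 27.1% of those of genes above 0.5 FPKM. Members with these letters had a median log2 change of -0.31 and those without of -0.38. The NRF1 core TGCGCA was in 9 member promoters (20.0%), against 14.3%, and the YY1 letters ATGGCGG in 7 (15.6%), against 10.8%. Members with the NRF1 core had a median log2 change of -0.45 and those without of -0.34, and for the YY1 letters the medians were -0.48 and -0.35. Both strands were searched.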
